A study of Mus musculus with 24 samples.

Results

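Haematopoietic stem cells (HSCs) were examined for 9 genes of nuclear transport, the nucleolus and growth. The genes are Ran and Ranbp1, Nme1 and Nme2, Odc1, Ncl, Npm1, Fbl and Myc. They were chosen by name, and each matched exactly 1 of the 27297 gene entries of the count table. Counts are unique molecular identifiers (UMIs), so that each captured RNA molecule is counted once. The cells came from the bone marrow of -60/DR5-TA-RA-CFP mice, whose cyan fluorescent protein (CFP) reporter responds to retinoic acid signalling. Single cells with the surface phenotype LSK, CD150+, CD48- were index sorted, so that the cytometer reading of the cell in each well is known. The labels give no age, sex or treatment, and describe the CFP status of these samples as mixed. The reporter strain is common to all cells, and no wild-type cells were among them.

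The analysis covered 1430 cells on 4 sort plates (345 to 368 cells a plate), with a median of 1265 UMIs a cell (511 to 6026) and 2109554 UMIs in all. The labels list 8 single-cell samples, each titled as a batch, and neither file maps wells to them. Plates were therefore treated as technical replicates, and whether they differ in animals or in batch is not known. The p-values measure only the spread between plates and cannot be read as a spread between animals. Levels are given as CPM, the UMIs of a gene scaled to a total of 1000000 UMIs in the same cells. Intervals are exact 95% Poisson intervals, or exact binomial ones for ratios of counts, and cover counting error only. All 12 HSC marker genes were detected. Some markers of other blood cells were also detected. The T cell markers Cd3d, Cd3e and Cd3g had 0 UMIs, whereas Cd79b of B cells had 179 and Nkg7 of NK and T cells 67. All 10 mature myeloid markers were detected, with 692 UMIs of the joint entry of Lyz1 and Lyz2, 96 of Mpo, 94 of Csf1r and 1 each of S100a8 and S100a9. Of 6 endothelial and stromal markers, 3 had 0 UMIs (Cdh5, Cxcl12 and Lepr) and Pecam1 had 124.

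The small GTPase Ran, loaded with GTP in the nucleus and emptied of it in the cytoplasm, gives direction to transport through nuclear pores, and in dividing cells it guides assembly of the spindle. Ranbp1 binds Ran-GTP and assists the GTPase-activating protein Rangap1. Ncl (nucleolin), Npm1 (nucleophosmin) and Fbl (fibrillarin) are nucleolar proteins that act in the making of ribosomes. Odc1 is the rate-limiting enzyme of polyamine synthesis, Nme1 and Nme2 are nucleoside diphosphate kinases, and Myc is the transcription factor known to raise many genes of growth and ribosome making. HSCs are mostly quiescent, and these functions are known to rise as a cell enters the cycle.

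The promoters of Ran, Nme1 and Ranbp1 are shown because these 3 genes were each at least 1.5-fold higher in the same groups of cells below. They did not move together in every comparison. They differ in the E-box CACGTG, the motif that Myc and its partner Max are known to bind. Each window holds 250 bases before and 50 after a RefSeq start (GRCm38.p6), printed 5′ to 3′ on the gene's strand, with the E-box in capitals. The UMI files give no coordinates.
Ran, chr5:129019906-129020205, plus strand: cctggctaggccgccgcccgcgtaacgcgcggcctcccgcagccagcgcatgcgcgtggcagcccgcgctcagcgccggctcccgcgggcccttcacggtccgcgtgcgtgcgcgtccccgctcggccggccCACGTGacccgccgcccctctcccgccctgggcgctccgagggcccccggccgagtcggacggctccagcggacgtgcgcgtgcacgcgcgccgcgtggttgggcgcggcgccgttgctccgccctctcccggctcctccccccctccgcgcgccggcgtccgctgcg
Nme1, chr11:93968223-93968522, minus strand: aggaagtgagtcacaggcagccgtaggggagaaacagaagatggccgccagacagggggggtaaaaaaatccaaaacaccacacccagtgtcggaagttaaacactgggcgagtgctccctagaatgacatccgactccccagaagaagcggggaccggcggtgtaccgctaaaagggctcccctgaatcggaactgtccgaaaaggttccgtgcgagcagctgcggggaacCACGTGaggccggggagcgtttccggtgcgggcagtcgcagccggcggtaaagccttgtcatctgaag
Ranbp1, chr16:18248645-18248944, minus strand: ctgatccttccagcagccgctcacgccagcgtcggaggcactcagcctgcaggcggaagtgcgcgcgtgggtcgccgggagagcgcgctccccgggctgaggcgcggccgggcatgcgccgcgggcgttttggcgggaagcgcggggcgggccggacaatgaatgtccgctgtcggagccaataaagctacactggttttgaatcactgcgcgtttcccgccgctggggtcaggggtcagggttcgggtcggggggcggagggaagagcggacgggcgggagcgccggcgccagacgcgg
The motif is its own reverse complement, so a match on one strand is a match on both. Ran had 1 match, which began at -118 from the start. Nme1 had 1 match in each of its 2 windows, at different sites, at -18 in the window shown. The windows of Ranbp1, Odc1, Nme2 (2 windows) and Ncl held none. Among 32851 mouse promoter windows of 300 bases, 7.15% held the motif. No window was used for Npm1, Fbl or Myc.

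Depth set what could be read for each gene. Ncl had 4180 UMIs, Nme2 1661, Ran 1456, Ranbp1 1196, Nme1 1072, Myc 733 and Odc1 258. Npm1 had 132 UMIs, with at most 2 in any cell, and Fbl had 13. Levels of different genes were not compared, since neither labels nor headers say how reads that match several places were counted. The glycolysis gene Gapdh, abundant in most mouse cells, had 16 UMIs in this table, so a low count of Npm1 or Fbl cannot be read as low expression. Nme1 and Nme2 are related genes that lie 2668 bases apart on chromosome 11, and how reads that match both were split between them is uncertain.

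Among the 8 genes with at least 100 UMIs, plates differed least for Ran and most for Npm1. Ran had 705, 663, 717 and 679 CPM on plates 2, 3, 4 and 5, a highest value 1.08 times the lowest. Ncl had 2069, 1836, 2022 and 2010 CPM on those plates. Nme1 lay between 457 and 554 CPM, and Nme2 between 672 and 891 CPM. Ranbp1 had 484 and 443 CPM on plates 2 and 3 and 691 and 644 CPM on plates 4 and 5, so the plates fell into 2 pairs with no overlap of their intervals. Odc1 ran from 93.4 to 145 CPM and Myc from 277 to 432 CPM. Npm1 had 64.1, 125, 32.9 and 28.4 CPM on plates 2, 3, 4 and 5, a 4.39-fold range, on 16 to 68 UMIs a plate. The part of this plate difference in the later results on Npm1 was not tested. Fbl had 5, 4, 0 and 4 UMIs on the 4 plates.

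The index record also gives each cell a whole number from 1 to 10, with no meaning stated. These numbers may have been made from the same expression values and are not known to follow time, so levels by group are given with no test. Groups 8, 9 and 10 held 202, 188 and 42 cells, and groups 2 to 7 together 988 cells. Group 1 held 10 cells and group 6 held 33, and these and group 10 were left out where levels of the 9 genes were ranked over groups. The S phase list of 46 genes and the mitosis list of 52 genes were summed to place the groups in the cell cycle. The S phase sum was 8467 CPM in group 8, 10676 in group 9 and 3538 in group 10, against 3544 in groups 2 to 7. The mitosis sum was 3690 CPM in group 8, 6494 in group 9 and 19441 in group 10, against 1875 in groups 2 to 7. Group 10 was thus low in S phase genes and highest in mitotic genes, and group 9 was highest in S phase genes. The HSC marker sum was 1171 CPM in group 8 and 1225 in group 9, against 2100 in groups 2 to 7. The megakaryocyte marker sum was 614 CPM in group 8 and 474 in group 9, against 406 in groups 2 to 7, and the part of these markers in the results by group was not tested.

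**Figure D1:**
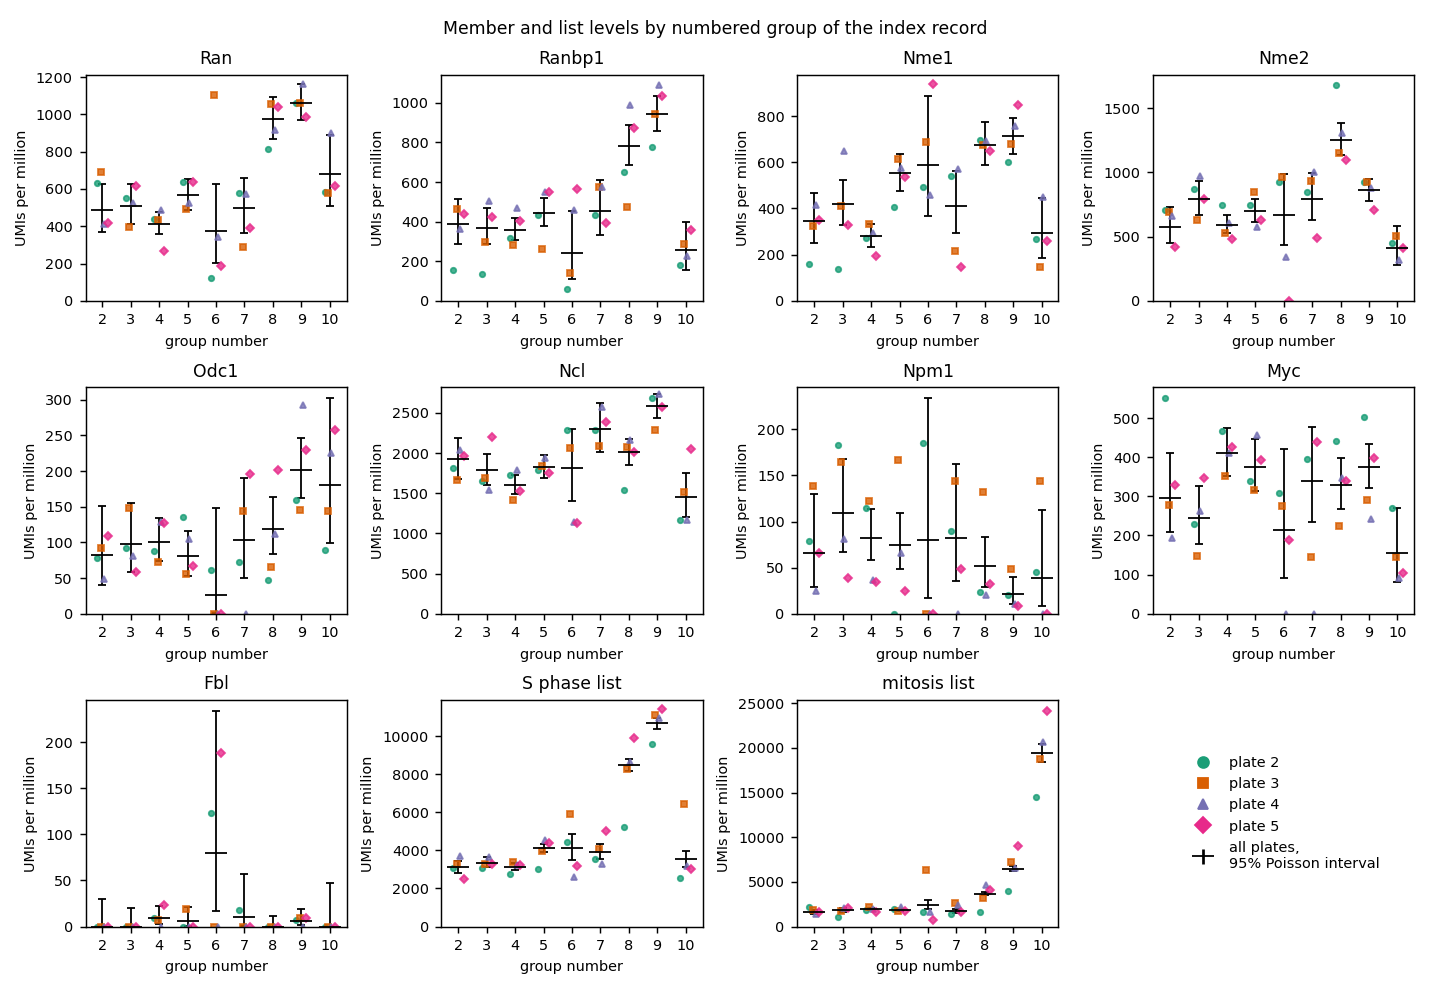
CPM of each gene and of the S phase and mitosis lists (vertical axes, each from 0) by group number 2 to 10 (horizontal axes). Bars mark all plates with the exact 95% Poisson interval, and coloured points mark plates 2 to 5. Ran, Ranbp1 and Nme1 are high in groups 8 and 9 and lower in group 10, where the mitosis list reaches 19441.

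Ran, Ranbp1, Nme1 and Nme2 were each at least 1.5-fold higher in group 8 than in groups 2 to 7, in 4 of 4 plates, and Odc1, Ncl, Npm1 and Myc were not. These are 4 of the 8 genes with at least 100 UMIs. Of the 4237 gene entries with that depth, 9.35% were at least 1.5-fold higher, and the median log2 ratio over all of them was -0.02. Ran had 975 CPM in group 8 (868 to 1091) against 484 CPM in groups 2 to 7, a ratio of 2.01 (1.75 to 2.32). In group 8 it had 815, 1056, 917 and 1042 CPM on plates 2, 3, 4 and 5. On every plate this was above the level in that plate's groups 2 to 7, by log2 ratios of 0.70, 1.17, 0.91 and 1.11.

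Ranbp1 followed Ran closely. It had 782 CPM in group 8 against 392 CPM in groups 2 to 7 (ratio 2.00, 1.70 to 2.33), with log2 ratios from 0.68 to 1.03 over plates. Nme1 had 676 CPM in group 8 against 404 CPM in groups 2 to 7 (ratio 1.67, 1.42 to 1.97), and its 4 plates in group 8 lay between 648 and 699 CPM. Nme2 had 1255 CPM in group 8 against 669 CPM in groups 2 to 7 (ratio 1.88, 1.66 to 2.12). Its level in group 8 was the highest of the 7 groups with at least 50 cells, while Ran, Ranbp1 and Nme1 were highest in group 9.

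Ncl, Npm1 and Myc were not 1.5-fold higher in group 8, Npm1 on few UMIs, and Fbl could not be judged. Ncl had 2011 CPM in group 8 against 1787 CPM in groups 2 to 7 (ratio 1.12, 1.03 to 1.23), higher on 3 of 4 plates and lower on plate 2 (log2 ratio -0.30). Npm1 had 51.5 CPM (16 UMIs) in group 8 against 82.5 CPM in groups 2 to 7 (ratio 0.62, 0.34 to 1.06), lower on 4 of 4 plates. Fbl had 0 UMIs in group 8 and 10 UMIs in groups 2 to 7, and the exact upper limit in group 8 was 11.9 CPM, above the 8.09 CPM of groups 2 to 7, so a difference was not detectable at this depth. Odc1 had 119 CPM (37 UMIs) in group 8 against 90.6 CPM in groups 2 to 7, and its log2 ratio ran from -0.96 to 1.10 over plates. Its pooled log2 ratio of 0.39 turned to -0.11 without plate 5 and to -0.15 in cells thinned to 1000 UMIs, so no direction is given for it. Myc had 328 CPM in group 8 against 354 CPM in groups 2 to 7 (ratio 0.93, 0.74 to 1.15), higher on 2 of 4 plates.

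Group 8 was not free of mitotic genes, so the pooled values do not show the Ran genes rising before mitotic genes. The mitosis sum in group 8 was 1.97 times (1.83 to 2.11) that in groups 2 to 7, close to the ratio of Ran, and the S phase sum was 2.39 times (2.28 to 2.51). Of the 25 mitosis entries with at least 100 UMIs, 18 were at least 1.5-fold higher in group 8, as were 26 of 30 of the S phase list. Single mitotic genes, chosen after their values were seen, spread widely. Ube2c, which targets cyclins for destruction, was 4.44-fold higher in group 8 (48 UMIs) and topoisomerase Top2a 3.10-fold (102 UMIs). The centromere genes Cenpa and Cenpf were at 1.39-fold (22 UMIs) and 0.90-fold (7 UMIs) in group 8, and at 18.2-fold and 31.3-fold in group 10.

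The genes also differed among themselves in how far group 8 stood from group 9. In group 8, Nme2 was at 146% of its level in group 9, Nme1 at 94.9%, Ran at 91.6%, Myc at 87.4%, Ranbp1 at 83.0%, Ncl at 77.9% and Odc1 at 59.0%. The S phase sum was at 79.3% and the mitosis sum at 56.8%, close to Odc1. Against its level in group 10, the mitosis sum in group 8 was at 19.0%. Plates differed here too. On plate 2 the mitosis sum in group 8 was 1654 CPM, a log2 ratio of -0.07 to groups 2 to 7, while Ran was at 0.70, Ranbp1 at 1.02, Nme1 at 1.00, Nme2 at 1.09 and the S phase sum at 0.75. On plates 3, 4 and 5 the mitosis sum was at 0.64, 1.24 and 1.23. Plate 2 had 35 cells in group 8, the fewest of the 4 plates.

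Split by CFP, cells of group 8 showed the same unevenness. Among the 62 CFP-bright cells of group 8 (the brightest 20% of each plate) the mitosis sum was 5771 CPM (5338 to 6230). Among the 126 intermediate cells it was 2556 CPM (2328 to 2801), and among the 14 dim cells 1817 CPM (1243 to 2566). Ran in group 8 had 906 CPM (740 to 1099) among bright cells, 1041 CPM (897 to 1202) among intermediate cells and 738 CPM (393 to 1263) among dim cells, so its intervals overlapped. Nme2 had 1100 CPM (915 to 1310) among bright cells, 1331 CPM (1168 to 1511) among intermediate cells and 1477 CPM (965 to 2164) among dim cells. Ranbp1 had 801 CPM (645 to 983) among bright, 813 CPM (687 to 956) among intermediate and 341 CPM (125 to 742, 6 UMIs) among dim cells. Nme1 had 721 CPM (574 to 895) among bright, 685 CPM (569 to 817) among intermediate and 284 CPM (92.2 to 663, 5 UMIs) among dim cells. In the dim cells of group 8 both thus stood below their levels in groups 2 to 7, 392 and 404 CPM, on very few UMIs, and these intervals overlapped those of the bright cells. The S phase sum was 9158 CPM among bright, 8286 CPM among intermediate and 5850 CPM (4775 to 7094) among dim cells. In groups 2 to 7 the mitosis sum was 1839 CPM (1619 to 2080) among bright cells and 1837 CPM (1745 to 1933) among intermediate cells. It was 2004 CPM (1842 to 2175) among dim cells of groups 2 to 7. The mitosis sum was thus still higher in group 8 among bright and intermediate cells, with intervals apart, but not among dim cells. The order in which Ran and the mitotic genes rise was not tested. Whether any cell passes from one group to another cannot be told from these files.

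**Figure D2:**
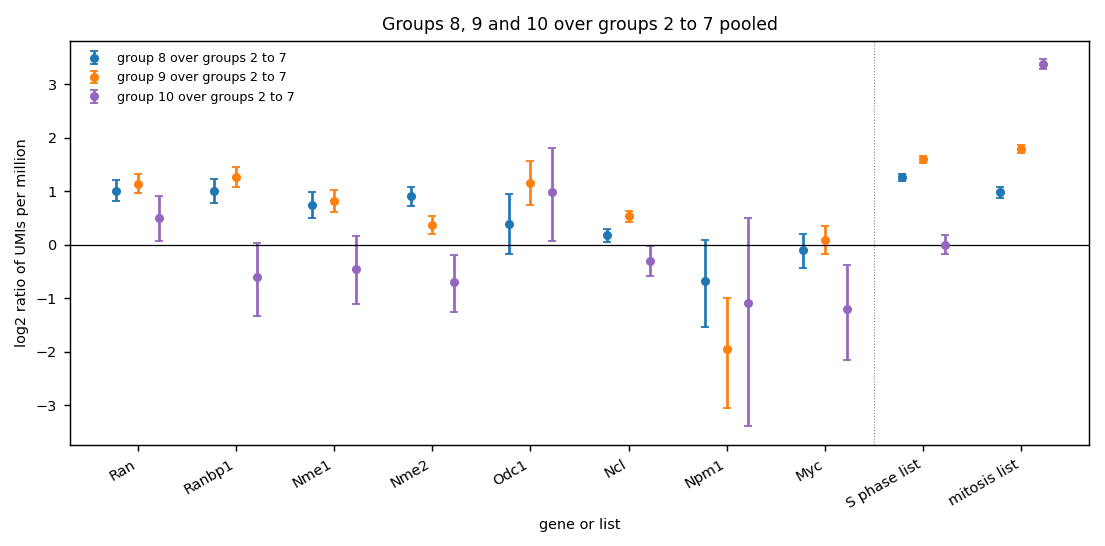
Log2 ratio of CPM (vertical axis) in groups 8, 9 and 10 over groups 2 to 7 pooled, for 8 genes and 2 lists (horizontal axis), with exact 95% binomial intervals from the counts. In group 10 the mitosis list stands at 3.37, while Ranbp1, Nme1 and Nme2 stand at -0.61, -0.45 and -0.70.

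In group 9, which held the highest S phase sum, Ran, Ranbp1, Nme1 and Odc1 were at least 1.5-fold higher than in groups 2 to 7, again 4 of 8 genes, where 13.3% of all 4237 gene entries were. Ranbp1 reached 941 CPM in group 9 against 392 CPM in groups 2 to 7 (ratio 2.40, 2.11 to 2.74). Odc1 reached 202 CPM in group 9 against 90.6 CPM in groups 2 to 7 (ratio 2.22, 1.67 to 2.95), higher on 4 of 4 plates, unlike in group 8. Ncl had 2582 CPM in group 9 against 1787 CPM in groups 2 to 7 (ratio 1.44, 1.35 to 1.55), with log2 ratios between 0.47 and 0.59 on all 4 plates. Nme2 had 862 CPM in group 9 against 1255 CPM in group 8, a ratio of 0.69 (0.60 to 0.79), lower on 4 of 4 plates. Nme1, its neighbouring gene, had 712 CPM in group 9 against 676 CPM in group 8 (ratio 1.05, 0.88 to 1.26). Npm1 had 21.4 CPM (10 UMIs) in group 9 against 82.5 CPM in groups 2 to 7 (ratio 0.26, 0.12 to 0.50), lower on 4 of 4 plates. Cells of group 9 also had the most UMIs, with a median of 2340.5 a cell, against 1432.5 in group 8.

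Group 10, with 42 cells, combined the highest mitosis sum with low levels of most of the genes. Ranbp1 had 257 CPM (20 UMIs) in group 10 against 941 CPM in group 9, a ratio of 0.27 (0.17 to 0.43). Nme1 had 296 CPM (23 UMIs) in group 10 against 712 CPM in group 9 (ratio 0.42, 0.26 to 0.63). Nme2 had 412 CPM in group 10 against 862 CPM in group 9 (0.48, 0.32 to 0.69), Ncl 1454 against 2582 CPM (0.56, 0.46 to 0.68) and Myc 154 CPM (12 UMIs) against 375 CPM (0.41, 0.21 to 0.74). Ran stayed closest to its group 9 level among these 6, with 682 CPM in group 10 against 1064 CPM in group 9 (0.64, 0.47 to 0.85). All 6 were lower in group 10 than in group 9 on 4 of 4 plates. Odc1 had 180 CPM (14 UMIs) in group 10 against 202 CPM in group 9, with overlapping intervals. Ran in group 10 remained above groups 2 to 7 on 4 of 4 plates (ratio 1.41, 1.04 to 1.87), whereas Ranbp1, Nme1, Nme2 and Myc were below them on 4 of 4. The ratios were 0.62 (0.42 to 0.88) for Nme2 and 0.44 (0.22 to 0.77) for Myc. For Ranbp1 (0.66, 0.40 to 1.03) and Nme1 (0.73, 0.46 to 1.11) the intervals included 1. Ranbp1 on plate 3 and Nme1 on plate 4 were nearly level (log2 ratios -0.04 and -0.01).

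The genes also varied across groups 2, 3, 4, 5 and 7. The highest of these 5 levels was 1.96 times the lowest for Nme1, 1.68 times for Myc and 1.43 times for Ncl, each more than the ratio of group 8 to groups 2 to 7 for that gene. It was 1.37 times for Ran, 1.27 times for Ranbp1 and 1.38 times for Nme2, less than that ratio. Ran was lowest in group 4 at 415 CPM (357 to 479), followed by group 2 at 487, group 7 at 495, group 3 at 511 and group 5 at 566 (490 to 651). Neighbours in that order had overlapping intervals, as did groups 8 and 9 above them. Nme1 was lowest in group 4 at 281 CPM (234 to 334) and reached 552 CPM (476 to 636) in group 5, the highest of these 5 groups, where its interval overlapped that of group 8 (587 to 773). Ncl was lowest in group 4 at 1608 CPM (1492 to 1729) and highest of these 5 in group 7 at 2301 (2009 to 2624), above the 2011 CPM of group 8, with overlapping intervals. Myc had its highest level of the 7 groups in group 4, at 410 CPM (353 to 474), and its lowest in group 3, at 245 CPM (179 to 328). Ranbp1 had 359 CPM (306 to 419) in group 4 and 370 CPM (287 to 469) in group 3, and by the mean of plates group 3 was lower (341 against 367 CPM). Group 4, the largest with 330 cells, thus had the lowest pooled levels of Ran, Ranbp1, Nme1 and Ncl and the highest of Myc. For each of these genes its interval overlapped that of at least 1 other group, for Myc those of groups 5 (315 to 447) and 9 (322 to 435).

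Over the 7 groups with at least 50 cells, the 5 gene entries whose log2 level was most like that of Ran, among 700 others with at least 500 UMIs, were the G1 kinase gene Cdk4 (Pearson r = 0.988), the translation factor gene Eif5a (0.985), the replicative helicase genes Mcm5 (0.985) and Mcm7 (0.982), and Siva1 (0.981). For Npm1 they were Atpase6 (0.971), Lsp1 (0.964), Nfe2 (0.930), Map1lc3b (0.917) and B144;Lst1 (0.911). These r describe 7 points that share their cells and depth, and the Npm1 points rest on 8 to 37 UMIs each.

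CFP was used as a rank within each plate. From the lowest to the highest quintile, Ran had 495 ± 52.6, 605 ± 105, 612 ± 59.1, 690 ± 47.9 and 888 ± 80.8 CPM (SD, n = 4 plates). The 4 plates of the highest quintile, from 814 to 965 CPM, lay above all plates of the other quintiles. Odc1 had 72.8 ± 32.3, 81.9 ± 42.6, 90.8 ± 2.19, 110 ± 16.3 and 196 ± 55.5 CPM. Its lowest plate in the highest quintile, at 133 CPM, lay just above the highest plate of the others, at 130 CPM in quintile 4 (47 UMIs in all). Ranbp1 had 483 ± 91.1, 398 ± 76.4, 421 ± 120, 585 ± 188 and 779 ± 169 CPM, with no step among the first 3. Nme2 had its highest mean in quintile 4, at 941 ± 125 CPM, against 877 ± 82.1 in quintile 5, a difference within the spread of plates. The S phase sum went through 3416, 3975, 4800, 5803 and 8786 CPM, and the mitosis sum through 2284, 2255, 2358, 2722 and 7022 CPM. Ran, Odc1 and the S phase sum had their means in the same rising order over all 5 quintiles, whereas the mitosis sum stood apart in the highest quintile.

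**Figure D3:**
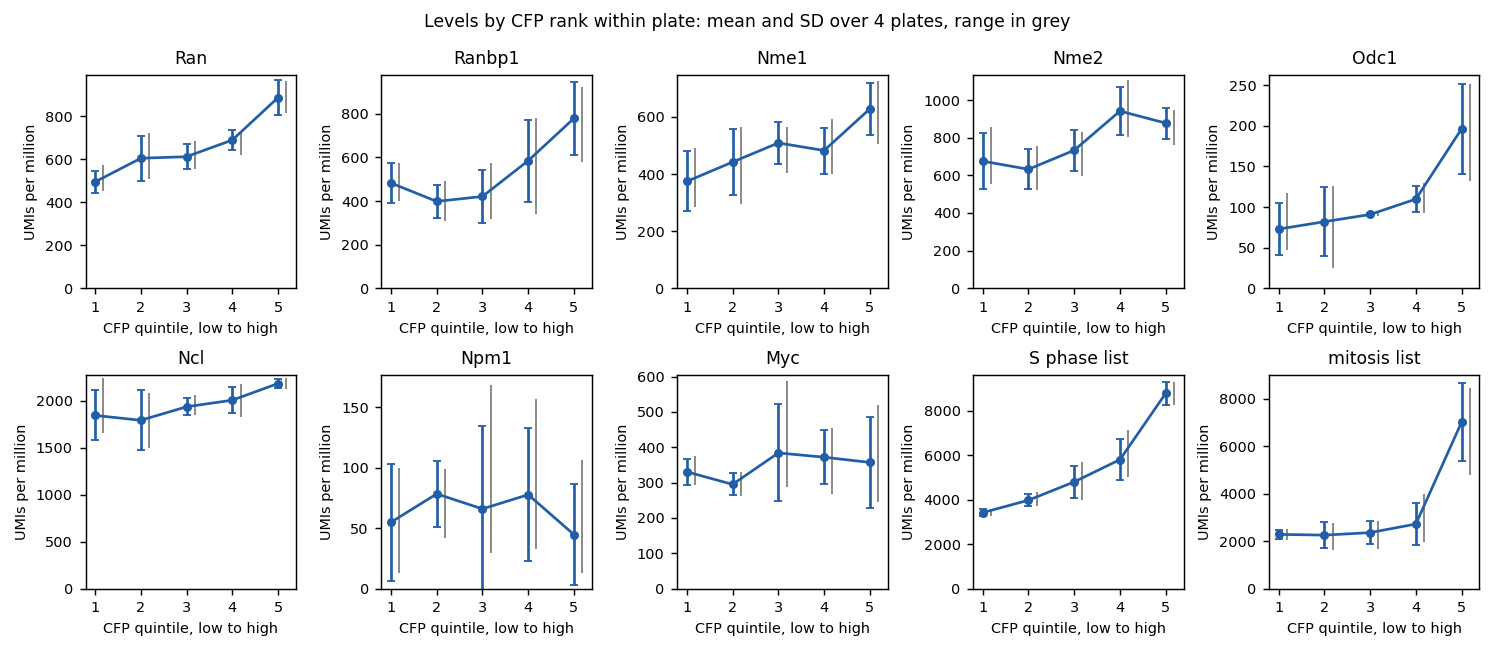
CPM (vertical axes, from 0) by CFP quintile within plate, from lowest to highest (horizontal axes), as mean and SD of 4 plates with the range in grey. Ran climbs to 888 and Odc1 to 196 in the highest quintile, while Myc and Npm1 show no order.

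Cells in the brightest 20% of each plate (286 cells) were compared with the dimmest 20% (286 cells) in edgeR's quasi-likelihood test, with the plate as a block and Benjamini-Hochberg adjustment over 4652 gene entries. Of the 8 genes tested, 6 were higher in bright cells and 0 were lower, where 5.61% of all entries were higher and 160 of the 4652 were lower. Fbl had too few UMIs to be tested. The median log2 fold change of the 8 was 0.53, against -0.03 over all entries. Total counts per plate lay between 135701 and 170837 UMIs for bright cells and between 76354 and 85201 UMIs for dim cells.

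Ran had 965, 822, 957 and 814 CPM in bright cells of plates 2, 3, 4 and 5, against 572, 469, 485 and 449 CPM in dim cells. The fractions did not overlap, and the log2 fold change was 0.83 ± 0.14 (SE, edgeR adjusted p = 5.57e-07). Ranbp1 had 582, 703, 906 and 925 CPM in bright cells, against 410, 399, 576 and 539 CPM in dim cells, so that the lowest bright plate lay just above the highest dim plate. Its log2 fold change was 0.68 ± 0.15 (edgeR adjusted p = 0.000232), and without the plate block it did not pass (edgeR adjusted p = 0.134). Rangap1, which completes the GTP cycle of Ran, had 228 ± 59.2 CPM in bright and 126 ± 41.9 CPM in dim cells (SD, n = 4 plates; log2 fold change 0.85 ± 0.26, edgeR adjusted p = 0.0226).

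Odc1 had the highest fold change of the 8 genes tested. It had 169, 133, 230 and 252 CPM in bright cells, against 74.6, 46.9, 118 and 64.1 CPM in dim cells, on 4 to 9 UMIs in each dim sum. The fractions did not overlap (log2 fold change 1.35 ± 0.31, edgeR adjusted p = 0.000731). Nme1 had 626, 504, 644 and 726 CPM in bright cells, against 286, 493, 432 and 282 CPM in dim cells, with plate 3 nearly level (log2 fold change 0.72 ± 0.16, edgeR adjusted p = 0.000367). Without plate 5 the adjusted p of Nme1 by edgeR was 0.0679, and without the plate block it was 0.0777.

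Nme2 and Ncl passed narrowly, and both calls were lost under several other settings. Nme2 had 892, 915, 944 and 761 CPM in bright cells, against 858, 552, 733 and 551 CPM in dim cells, with overlap (log2 fold change 0.38 ± 0.13, edgeR adjusted p = 0.0403). Ncl had 2225, 2128, 2182 and 2160 CPM in bright cells, against 2237, 1655, 1755 and 1705 CPM in dim cells, and on plate 2 the bright cells were not higher (log2 fold change 0.23 ± 0.08, edgeR adjusted p = 0.0478). The Ncl call rests on the filter for low counts, and a filter on the fractions alone gave an edgeR adjusted p of 0.0554. Nme2 gave 0.320, 0.0994 and 0.137 by edgeR without plate 3, 4 and 5, and Ncl 0.269, 0.170 and 0.222. DESeq2 called neither (adjusted p of 0.159 for Nme2 and 0.222 for Ncl), so that it called 4 of the 8.

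Myc and Npm1 did not pass. Myc had 523, 265, 242 and 398 CPM in bright cells, against 311, 293, 341 and 385 CPM in dim cells, higher in bright cells on 2 of 4 plates (log2 fold change 0.07 ± 0.18, edgeR adjusted p = 0.890). Without plate 2 its log2 fold change was -0.17. Npm1 had 36.8, 106, 12.8 and 23.4 CPM in bright cells, against 99.4, 93.9, 13.1 and 12.8 CPM in dim cells, on 1 to 16 UMIs each (log2 fold change -0.32 ± 0.49, edgeR adjusted p = 0.787). The difference between plates exceeded that between fractions for both.

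The genes differed in where along the CFP rank the change lay. Against intermediate cells, bright cells were higher in 4 of the 8 genes, where 5.42% of all entries were higher. These were Odc1 (log2 fold change 1.01 ± 0.22), Ranbp1 (0.70 ± 0.12), Ran (0.45 ± 0.11) and Nme1 (0.36 ± 0.12). DESeq2 called 3 of them and not Nme1 (adjusted p = 0.261). Between intermediate and dim cells none of the 8 was called by edgeR or by DESeq2, with 2 at an unadjusted p under 0.05 by edgeR (Ran at 0.38 ± 0.14 and Nme1 at 0.36 ± 0.16) and 1 by DESeq2, and 0.0215% of all entries were called. The estimates of the upper and the lower step were of like size for Ran and Nme1, while the lower step was estimated at -0.02 ± 0.15 for Ranbp1 and 0.34 ± 0.33 for Odc1. For Nme2 the estimates were 0.16 ± 0.11 for the upper and 0.22 ± 0.12 for the lower step. These contrasts share their cells, and a difference between the steps was not tested.

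The bright fraction differed from the dim one in which groups it held. Groups 8 to 10 held 66.8% of the bright cells, 24.9% of the intermediate cells and 9.44% of the dim cells, and the median was 1813.5 UMIs a cell in bright and 1060 in dim cells. With groups 8 to 10 left out, edgeR called 0 of 2421 entries (175 had an unadjusted p under 0.05; DESeq2 was not run on this set), and none of the 8 genes. The log2 fold change of Ran was then 0.21, of Ranbp1 0.02, of Nme1 0.14 and of Nme2 0.31, while that of Odc1 was 1.22 ± 0.51 (edgeR adjusted p = 0.566). Within groups 2 to 7, Odc1 had 182 CPM (118 to 268, 25 UMIs) in bright cells and 70.7 CPM (43.2 to 109, 20 UMIs) in dim cells. Ran had 516 CPM (403 to 651) in bright and 442 CPM (368 to 526) in dim cells of those groups, with overlapping intervals.

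Depth moved with CFP as well. With 138 bright and 138 dim cells matched on UMIs per cell, none of the 6 genes that could still be tested passed, and the log2 fold change of Ran was 0.11, of Ranbp1 0.32 and of Nme1 0.38. Odc1 and Npm1 fell below the filter in that set, which called 27 entries higher in bright cells and 12 lower. With cells under 1000 UMIs left out and the others thinned to 1000 (255 of 286 bright and 159 of 286 dim cells), Ran alone of the 7 genes that could still be tested passed (log2 fold change 0.61 ± 0.19, edgeR adjusted p = 0.0468). In the same cells without thinning, Ran, Ranbp1, Nme1 and Odc1 passed (edgeR adjusted p = 0.000382, 0.00204, 0.00339 and 0.00779). Nme2 and Ncl did not pass there (edgeR adjusted p = 0.160 and 0.0742). After thinning, 51.9 ± 11.8% of bright cells and 41.2 ± 6.02% of dim cells had a UMI of Ran (SD, n = 4 plates), and before it, among all cells, 71.6 ± 7.10% and 38.9 ± 4.52%. The part of depth and of group membership in the CFP result was not tested separately, since cells of groups 8 to 10 are also the deeper ones. The erythroid marker sum ran from 538 to 2756 CPM over plates in bright and from 851 to 7194 CPM in dim cells. The HSC marker sum ran from 1270 to 1606 CPM in bright and from 1807 to 2253 CPM in dim cells with no overlap. Of its 10 tested genes edgeR called 0 higher and 3 lower, where 160 of all 4652 entries were lower. The megakaryocyte sum ran from 486 to 825 CPM in bright and from 286 to 576 CPM in dim cells, and the mature myeloid sum from 95.8 to 561 CPM in bright and from 311 to 786 CPM in dim cells. The part of these markers was not tested.

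**Figure D4:**
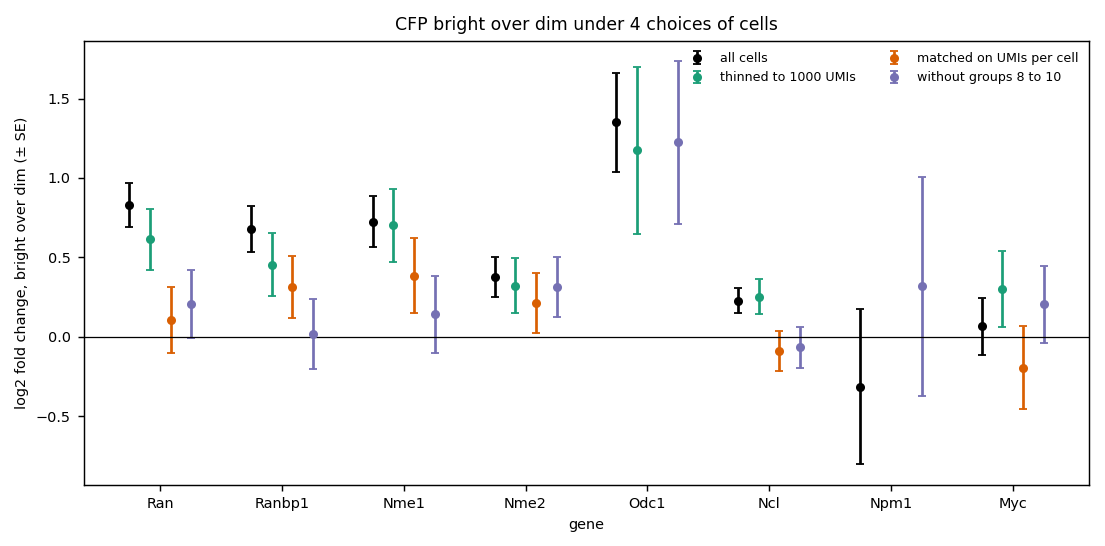
Log2 fold change of CFP-bright over dim cells with its SE (vertical axis) for 8 genes (horizontal axis), in all cells, in cells thinned to 1000 UMIs, in cells matched on UMIs, and without groups 8 to 10. Ran is at 0.83 in all cells, 0.11 after matching and 0.21 without groups 8 to 10. Odc1 is at 1.22 in the last, where no gene passed.

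Few other genes of these pathways were called between bright and dim cells, in shares to be read against the 5.61% of all entries that were higher. Of 17 further tested genes of the Ran cycle and nuclear transport, 1 was higher (Rangap1, above), 0 were lower and 16 did not pass, with a median log2 fold change of 0.24 against -0.03 over all entries. Of 34 further nucleolar genes, 0 were called by edgeR or by DESeq2, with 5 and 3 at an unadjusted p under 0.05, and their median log2 fold change was 0.09. Of 10 further polyamine genes, with a median of 0.19, 1 was higher, Eif5a, the translation factor that carries a residue made from a polyamine, with 1682 ± 110 CPM in bright and 1345 ± 78.1 CPM in dim cells (log2 fold change 0.30 ± 0.09, edgeR adjusted p = 0.0182). Of 18 further nucleotide synthesis genes, with a median of 0.23, 1 was higher, Cad of pyrimidine synthesis, with 222 ± 35.5 CPM in bright and 113 ± 42.6 CPM in dim cells (0.96 ± 0.27, edgeR adjusted p = 0.00944). DESeq2 called none of these 3. The single calls among the transport, polyamine and nucleotide genes are near the share over all entries. Of 3 further tested genes of the Myc and Max network, 0 were called by either tool, with 1 at an unadjusted p under 0.05 by edgeR and 0 by DESeq2, and their median was -0.53. Against intermediate cells, where 5.42% of all entries were higher in bright cells, edgeR called 4 of the 17 transport genes higher and DESeq2 1. Beside Rangap1 (log2 fold change 0.90 ± 0.20) these were the exportin Xpo5 (1.43 ± 0.46), the nuclear pore gene Nup107 (1.02 ± 0.33) and the importin Ipo5 (0.45 ± 0.15), named after their values were seen. Of the 18 nucleotide genes, edgeR called 3 higher in bright than in intermediate cells and DESeq2 0. They included Cad (0.61 ± 0.19) and the purine synthesis gene Gart (0.45 ± 0.15). In the same contrast edgeR called 1 of the 10 polyamine genes and 1 of the 34 nucleolar genes higher, and DESeq2 none. By contrast, 28 of 38 tested S phase genes and 23 of 32 mitosis genes were higher in bright than in dim cells, and 0 were lower. The mitotic microtubule depolymerase Kif2c (log2 fold change 4.29 ± 0.95), Cdca2 (3.32 ± 0.67) and the spindle kinase Aurka (3.27 ± 0.85) led the mitosis list. In dim cells these 3 stood near the lower limit of counting, at 2.93 ± 5.87, 9.32 ± 18.6 and 6.04 ± 6.98 CPM (SD, n = 4 plates). Their order is therefore uncertain.

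Forward scatter area, a readout of cell size, was taken in the same way. Between the 20% of cells with the highest and the 20% with the lowest forward scatter area of each plate, none of the 8 genes passed, 0 had an unadjusted p under 0.05 by edgeR or by DESeq2, and 0.169% of 3556 entries were called. Ran had 742 ± 86.8 CPM in cells of high and 697 ± 54.7 CPM in cells of low forward scatter (SD, n = 4 plates), a log2 fold change of 0.11 ± 0.14. Nme1 had 550 ± 53.6 CPM in cells of high and 471 ± 44.9 CPM in cells of low forward scatter (0.24 ± 0.16). The SEs leave room for differences of the size seen for Nme2 between the CFP fractions. The 6 entries that edgeR called were all higher in cells of high forward scatter. Of these, 3 were erythroid markers, of which 4 were tested (median log2 fold change 2.51). The median was 0.19 for the S phase list and -0.48 for the mitosis list, with 0 genes of either called. The part of the erythroid markers in the forward scatter result was not tested.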

How the data were processed

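Per the labels' protocols, single HSCs were sorted into 384-well plates, reverse transcribed with barcoded oligo-dT primers and sequenced as pools. The authors deposited UMI counts for each well and gene without normalization, and an index record of 1430 of 1536 wells. In the deposited record, CFP is a log10 value and forward scatter area a linear intensity, per the values; both were used as ranks within a plate, and the group number has no stated meaning. The submitters' processing notes name bcl2fastq 2.15.0.4, Bismark 0.19.0, STAR, cutadapt, DESeq2 and featureCounts, and builds mm10 and mm9, with no role. How reads became UMI counts was not stated there. Bulk RNA-seq and bisulphite samples were not analysed here.

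Recorded cells with at least 500 UMIs were kept (all 1430). No doublet caller was run, since wells held single sorted cells. UMIs were summed per plate and fraction (20% highest, 60% middle and 20% lowest, as for the bulk samples in the labels) and tested with edgeR 4.0.16 under R 4.3.3. Low counts were removed by filterByExpr, library sizes scaled by TMM, and the quasi-likelihood F test run on all 3 fractions in 1 fit, with a Benjamini-Hochberg threshold of 0.05. SEs were taken from the fold change and its F statistic. The plate was a block because the 3 fractions of a plate were sorted onto that plate, per the record. Residual degrees of freedom were 6 and prior degrees of freedom 276, so small p-values borrow precision from all genes. The tests were checked on simulated counts.

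The low-count filter was applied to the full design with plates (4652 entries, 6 genes called) after a filter on the fractions alone (3836 entries, 5 called) had been fitted first, so that choice was made with both results in view. The 9 genes and all lists were chosen with earlier results of these data known. The 9 genes were always named. Other genes were named as up to 4 per list past the threshold between bright and dim, with the largest fold change first, and as the 5 most like Ran or Npm1 over the groups; S phase genes and Aurkb among these are not repeated here. Gene positions and promoters are RefSeq's (GRCm38.p6), all 9 genes matched for position and 6 for promoters. Alternatives were DESeq2 1.42.0, other size factors, no filter, at least 1000 UMIs a cell, thinning, matching on UMIs, 33% fractions, no groups 8 to 10, no block, ties kept together and leaving out each plate.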

Additional observations from a re-analysis of the deposited data

Results flagged for a closer look

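Of 36 sets of 4 plates examined, for the 9 genes in groups of cells by CFP and in whole plates, 2 had a plate standing apart from the other 3, where chance gives about 1 in 20. Both are Fbl, at the lower limit of counting. Fbl had 12.8 CPM in dim cells of plate 5, from 1 UMI, and 0 on the other 3 plates. In intermediate cells Fbl had 0 CPM on plate 4 and between 9.53 and 11.2 CPM on the other 3.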

How the results depend on the processing

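Of the CFP results, 131 of 189 values under other settings kept their direction and side of the threshold, as did 108 of 118 for forward scatter. For group 8 over groups 2 to 7, 63 of 63 values stayed within the spread between plates or, for the count past 1.5-fold, at 4, but Odc1 (0.39) turned to -0.15 in thinned cells and -0.11 without plate 5. The number of the 8 genes called higher in bright cells (6) was 1 of 7 tested with thinned cells, 0 with cells matched on UMIs, 0 without groups 8 to 10, 2 without the plate block (Ran and Odc1), and 3 to 6 without 1 plate. Over all entries, 261 were higher with all cells, and 143 with DESeq2, 61 thinned, 27 matched, 0 without groups 8 to 10, 108 without the block and 166 to 232 without 1 plate. The entries lower in bright cells (160) were 54 with no filter, 68 with DESeq2, 64 with at least 1000 UMIs a cell, 29 thinned, 12 matched, 0 without groups 8 to 10, 17 without the block and 91 to 136 without 1 plate. Directions turned for Myc (-0.20) and Ncl (-0.088) after matching, and for Ncl (-0.067) and Npm1 (0.32) without groups 8 to 10. Without 1 plate Myc ran from -0.17 to 0.24 and Npm1 from -0.73 to 0.22. Thinned and matched sets hold fewer cells and UMIs and the set without groups 8 to 10 fewer cells; beyond that the cause was not tested. Between high and low forward scatter, the 6 entries called higher were 0 with DESeq2, 0 without the block and 3 to 7 without 1 plate, and the 0 called lower were 2 with at least 1000 UMIs a cell and 0 to 1 without 1 plate. Ranbp1 turned to -0.014 without groups 8 to 10, and without 1 plate Odc1 ran from -0.14 to 0.35, Npm1 from -0.37 to 0.24 and Ncl from -0.012 to 0.14. Using no filter moved the median log2 fold change of all entries from -0.03 to 0.07. Each gene matched 1 entry, so summing entries per gene gave no other value. The counts of Npm1 (132 UMIs) and Fbl (13 UMIs) limit what could be detected for them. The settings with ties kept together and with the filter on fractions alone were chosen after seeing the data.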
